A study of Mus musculus with 12 samples.

Results

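The genes described here are 9 antioxidant genes of mouse skin, namely Sod1, Sod2, Prdx2, Prdx3, Gpx2, Gpx4, Park7, Mt1 and Mt2. They were chosen by symbol and make up 9 of the 7902 genes in the deposited tables. All 9 were found, and all 9 passed the filter on low counts. RNA was measured by bulk sequencing in 12 skin samples, 4 in each of 3 groups. The M+NSPCC1 group had the skin ageing model and was given NSPCC1, an extract of grape seed. The Model group had that ageing model alone, which was induced with D-galactose, a sugar whose excess burdens tissue with oxidants, together with ultraviolet A and B light. The Ctrl group was control skin. The M+NSPCC1 and Model groups therefore share the galactose and the light, and no group analysed here received the extract without them. The sources used here do not give doses, times, what Ctrl mice received, age, sex, strain or body site. Separate animals are not stated for the samples of a group, so each p-value rests on the spread among these samples only, and this may be partly technical.

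Superoxide, a by-product of respiration and of ultraviolet damage, is converted to hydrogen peroxide by superoxide dismutases. Sod1 encodes the copper and zinc enzyme of the cytosol and Sod2 the manganese enzyme of the mitochondrial matrix. Hydrogen peroxide is then removed by peroxiredoxins, of which Prdx2 is cytosolic and Prdx3 mitochondrial, and by glutathione peroxidases. Gpx2 is a cytosolic, selenium-dependent enzyme of epithelia, and Gpx4 reduces lipid peroxides in membranes and has cytosolic, mitochondrial and nuclear forms. Park7 encodes DJ-1, a mainly cytosolic protein that senses oxidation. Mt1 and Mt2 are metallothioneins, small cysteine-rich proteins of the cytosol that bind zinc and copper, scavenge radicals and are induced by metals, stress hormones and ultraviolet light in skin.

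The metallothionein promoters are shown because Mt1 and Mt2 were the most abundant of the 9 in the M+NSPCC1 and Model groups, lie next to each other on chromosome 8 and varied together from library to library. Metal-responsive transcription factor binds metal response elements, whose core was searched as TGCACNC or TGCGCNC on both strands. Windows of 300 bases, 250 before and 50 from an annotated start onward, came from RefSeq on GRCm38.p6, the assembly called mm10. Capitals mark the core matches, read 5′ to 3′ on the plus strand, on which both genes lie. The first pair of sequences is the stretch upstream of the start, and the last is a stretch of Mt1 that begins just after it.
Mt2 upstream, chr8:94172368-94172617: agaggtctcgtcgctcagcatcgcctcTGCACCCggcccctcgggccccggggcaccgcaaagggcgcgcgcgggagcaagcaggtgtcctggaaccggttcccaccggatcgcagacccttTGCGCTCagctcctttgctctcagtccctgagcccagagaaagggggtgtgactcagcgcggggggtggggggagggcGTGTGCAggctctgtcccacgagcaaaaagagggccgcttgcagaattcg
Mt1 upstream, chr8:94178839-94179088: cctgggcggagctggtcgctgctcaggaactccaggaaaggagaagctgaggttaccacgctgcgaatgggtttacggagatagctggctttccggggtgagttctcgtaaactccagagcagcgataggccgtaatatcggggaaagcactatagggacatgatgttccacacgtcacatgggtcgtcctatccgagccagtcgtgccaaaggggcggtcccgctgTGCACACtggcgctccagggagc
Mt1 after the start, chr8:94179091-94179115: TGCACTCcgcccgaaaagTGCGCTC
Within its window Mt2 had 4 core matches, with first bases at -223, -128, -50 and 5 relative to the start (the start being base 1), of which the last lies outside the stretch shown. Mt1 had 3 matches, at -23, 3 and 21, counted from a start that lies inside the annotated gene. Park7 had 1 match and the other 6 genes had 0. Of 32851 promoter windows of the same length, 25.7% held at least 1 match, 1.97% held at least 3 and 0.517% held at least 4. An antioxidant response element core, searched on both strands as TGACNNNGC, occurred once in Mt2, at -79, and once in Sod1, at -56. It occurred in 12.4% of all promoter windows, and 0 of the 7 other genes had a match. A match describes letters in a window and not a binding site.

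The summed estimated counts ran from 9717338 to 10952623 per library over the tabulated genes, which are only part of each library, and relative sequencing depth ran from 0.967 to 1.032. Of 7638 tested genes, 90.5% had a Benjamini-Hochberg adjusted p under 0.05 by the edgeR quasi-likelihood F-test in Model against Ctrl (49.1% higher and 41.4% lower). The share was 93.2% in M+NSPCC1 against Ctrl (50.1% higher and 43.1% lower). The tables thus hold mostly genes that differ from Ctrl, and a pass against Ctrl sets no gene apart within them. Over all tested genes, the median log2 fold change stood at 0.255 in Model against Ctrl and 0.273 in M+NSPCC1 against Ctrl. This median was 0.083 and 0.115 with DESeq2's size factors, and 0.432 and 0.487 with whole-library depth as the scaling. It describes the tabulated genes only and is no neutral baseline. Fold changes below are given without subtracting it, except where stated. All 14 tested hair shaft markers rose against Ctrl in both groups, with summed levels of 32471 to 59016 CPM (counts scaled to library size) in M+NSPCC1, 49788.1 to 77546.4 CPM in Model and 6.977 to 333.1 CPM in Ctrl libraries. All 16 skeletal muscle markers fell, with 12155.5 to 18608.1 CPM in M+NSPCC1, 5136.1 to 17350.6 CPM in Model and 90146.7 to 97904.1 CPM in Ctrl libraries. The 3 epidermal markers that were tested, of 7 listed, summed to 4759.6 to 7469 CPM in M+NSPCC1, 4549.5 to 8559.4 CPM in Model and 6659 to 8915.7 CPM in Ctrl libraries. That sum does not speak for each marker. In Model against Ctrl 2 rose and 1 fell (median log2 fold change 0.48). In M+NSPCC1 against Ctrl 1 rose, 1 fell and 1 did not pass (median 0.42). The other lists moved as well: all 6 tested adipocyte markers (of 11 listed) fell, with a median log2 fold change of -1.61 in M+NSPCC1 against Ctrl and -1.68 in Model against Ctrl. All 7 fibroblast markers (of 10) fell, with a median of -1.37 in both, and all 6 endothelial markers fell, with medians of -1.87 in M+NSPCC1 and -1.72 in Model. Of 8 tested immune markers (of 10), 7 fell and 1 did not pass in M+NSPCC1 (median -1.96), and 7 fell and 1 rose in Model (median -1.71). All 6 cell division markers rose, with medians of 2.76 in M+NSPCC1 and 2.54 in Model. Of 3 tested sebaceous gland markers (of 8), 2 rose and 1 fell in both, and their summed level was 4331.8 to 7025.3 CPM in M+NSPCC1, 3689.2 to 9869.4 CPM in Model and 14150.2 to 19812.5 CPM in Ctrl libraries. No tested marker was at 0 in a whole group. These marker changes go with every comparison with Ctrl below, and their part in the results was not tested. In bulk skin, fewer cells of a type and less RNA per cell cannot be told apart.

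Against Ctrl, the 9 genes split the same way in both groups. Gpx2, Mt1, Mt2 and Prdx2 rose, and Sod1, Sod2, Prdx3, Gpx4 and Park7 fell. In Model against Ctrl the log2 fold changes of the 9 ran from -1.24 for Gpx4 to 3.10 for Gpx2, and in M+NSPCC1 against Ctrl from -1.13 for Gpx4 to 2.35 for Gpx2. The 4 rises and 5 falls were also the genes whose FPKM did not overlap between the groups compared. Among all tested genes, CPM values without overlap were higher in 43.2% and lower in 39.8% in Model against Ctrl. They were higher in 47.4% and lower in 42.5% in M+NSPCC1 against Ctrl. Such a lack of overlap is therefore usual in these tables and is no result about the 9. Relative to the median of all tested genes, the changes in Model against Ctrl ranged from -1.5 for Gpx4 to 2.84 for Gpx2. A change of scaling moves all genes and their median nearly alike, so these relative values cannot test the scaling. Before that subtraction, each of the 9 kept its direction under the 3 scalings. The 2 comparisons share the 4 Ctrl libraries, so their likeness is not independent evidence.

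**Figure D1:**
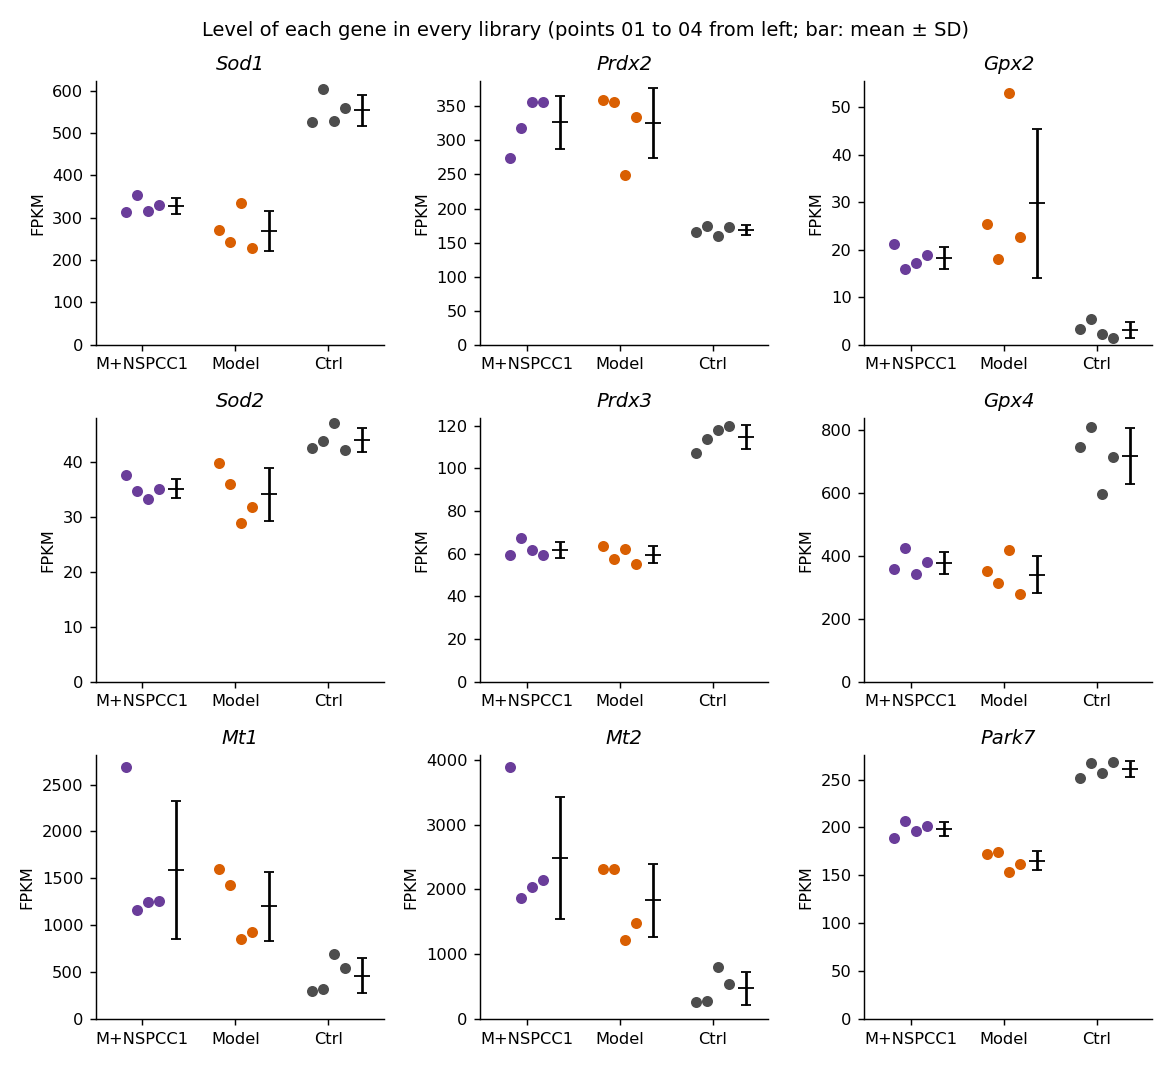
Level of each of the 9 genes in FPKM (vertical axis of each panel, starting at 0) in the M+NSPCC1, Model and Ctrl libraries; points are libraries 01 to 04 from left, and the bar is the mean with its SD. Sod1, Sod2, Prdx3, Gpx4 and Park7 sit lower in all 8 libraries of M+NSPCC1 and Model than in any Ctrl library, and Gpx2, Prdx2, Mt1 and Mt2 sit higher.

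Both superoxide dismutases fell against Ctrl. Sod1, the cytosolic enzyme, is gene ID 20655 (chromosome 16, 90220762 to 90226333, mm10). Levels are given in FPKM, fragments scaled for the length of the transcript and the depth of the library, in the order of libraries 01 to 04. Sod1 had 312.6, 353.8, 315.1 and 329.1 FPKM in M+NSPCC1, 271.5, 241.8, 334.2 and 228.4 FPKM in Model, and 525, 603.7, 527.6 and 558.7 FPKM in Ctrl libraries. All 8 libraries of the model groups lay under the lowest Ctrl library, and Model 03 was the only Model library above the lowest M+NSPCC1 library. The means were 328 ± 18.9 FPKM in M+NSPCC1, 269 ± 47.1 in Model and 554 ± 36.7 in Ctrl (SD, n = 4 each). By the edgeR quasi-likelihood F-test with Benjamini-Hochberg adjustment, the log2 fold change was -1.21 in Model against Ctrl (SE 0.12; adjusted p = 3.83e-06) and -0.96 in M+NSPCC1 against Ctrl (SE 0.12; adjusted p = 2.28e-05).

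Sod2 (gene ID 20656, chromosome 17, 13007839 to 13018119) detoxifies superoxide where respiration makes it. It had 37.49, 34.71, 33.2 and 35.01 FPKM in M+NSPCC1, 39.71, 36, 28.75 and 31.67 FPKM in Model, and 42.49, 43.75, 46.97 and 42.18 FPKM in Ctrl libraries. No library of either model group reached the lowest Ctrl library, although Model 01 came close to it. The log2 fold change was -0.54 in Model against Ctrl (SE 0.09; adjusted p = 0.000186 by the edgeR quasi-likelihood F-test with Benjamini-Hochberg adjustment). It was also -0.54 in M+NSPCC1 against Ctrl (SE 0.09; adjusted p = 0.000213 by the same edgeR test).

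The peroxiredoxins went opposite ways, with cytosolic Prdx2 up and mitochondrial Prdx3 down. Prdx2 (gene ID 21672, chromosome 8, 84969622 to 84974811) is an abundant peroxidase of red blood cells as well as of other tissues. It had 274.5, 319, 356 and 356.5 FPKM in M+NSPCC1, 359.8, 356.4, 249.7 and 334 FPKM in Model, and 165.8, 174.2, 159.3 and 173.1 FPKM in Ctrl libraries. Every library of the model groups was above the highest Ctrl library, with Model 03 the lowest of them. Its log2 fold change was 0.77 in Model against Ctrl (SE 0.11; adjusted p = 4.57e-05) and 0.74 in M+NSPCC1 against Ctrl (SE 0.11; adjusted p = 6.3e-05) by the edgeR quasi-likelihood F-test with Benjamini-Hochberg adjustment. Prdx2 was the only one of the 9 with 2 transcripts in the tables, and the first of these held 17.0% to 20.3% of its FPKM in all 12 libraries.

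Prdx3 (gene ID 11757, chromosome 19, 60864066 to 60874538) removes hydrogen peroxide in the mitochondrial matrix. It had 59.53, 67.25, 61.68 and 59.24 FPKM in M+NSPCC1, 63.78, 57.63, 62.07 and 55.07 FPKM in Model, and 107.3, 113.8, 118.1 and 119.7 FPKM in Ctrl libraries. The model groups overlapped each other throughout and stayed far under Ctrl. Its level was 61.9 ± 3.71 FPKM in M+NSPCC1, 59.6 ± 4 in Model and 115 ± 5.53 in Ctrl libraries (SD, n = 4 each), so the spread within groups was small. The log2 fold change was -1.12 in Model against Ctrl (SE 0.07; adjusted p = 2.06e-07) and -1.10 in M+NSPCC1 against Ctrl (SE 0.07; adjusted p = 2.76e-07) by the edgeR quasi-likelihood F-test with Benjamini-Hochberg adjustment.

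Among the glutathione peroxidases, Gpx2 gave the largest rise of the 9 and Gpx4 the largest fall. Gpx2 (gene ID 14776, chromosome 12, 76792335 to 76795554) was the lowest of the 9 in every group. It had 21.12, 15.86, 17.28 and 18.78 FPKM in M+NSPCC1, 25.3, 18.1, 52.93 and 22.72 FPKM in Model, and 3.25, 5.41, 2.32 and 1.38 FPKM in Ctrl libraries. Model 03 stood far above the rest, and the lowest library of the model groups was still above the highest Ctrl library. Its estimated counts were 212 to 295 in M+NSPCC1, 250 to 707 in Model and 18 to 70 in Ctrl libraries, so the Ctrl values rest on few fragments. The fitted level was 8.6-fold higher in Model than in Ctrl, a log2 fold change of 3.10 (95% interval 2.15 to 4.05; adjusted p = 4.44e-05 by the edgeR quasi-likelihood F-test with Benjamini-Hochberg adjustment). It stood at 2.35 in M+NSPCC1 against Ctrl (SE 0.43; adjusted p = 0.000307 by the same edgeR test).

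Gpx4 (gene ID 625249, chromosome 10, 80047166 to 80056439) protects membranes from lipid peroxidation and is needed for cell survival. It had 358.8, 426.4, 343.8 and 382 FPKM in M+NSPCC1, 352.6, 315, 418.1 and 278.1 FPKM in Model, and 747.2, 811.3, 597.5 and 714.5 FPKM in Ctrl libraries. All libraries of the model groups lay under the lowest Ctrl library, and Model 03 was again the Model library nearest to Ctrl. Its log2 fold change was -1.24 in Model against Ctrl (SE 0.14; adjusted p = 8.37e-06) and -1.13 in M+NSPCC1 against Ctrl (SE 0.14; adjusted p = 1.8e-05) by the edgeR quasi-likelihood F-test with Benjamini-Hochberg adjustment. Its estimated counts were whole numbers in 0 of 12 libraries, as when reads are divided with other sequences, so its level is less certain than that of Sod1, whose counts were whole in 12 of 12.

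Park7 (gene ID 57320, chromosome 4, 150897133 to 150909921) had the smallest spread of FPKM relative to its mean among the 9 in each of the 3 groups. It had 189.5, 206.4, 196.7 and 201.2 FPKM in M+NSPCC1, 172.3, 173.9, 153.1 and 161.4 FPKM in Model, and 251.5, 267.6, 256.6 and 268.8 FPKM in Ctrl libraries. The 3 groups did not overlap at all, with M+NSPCC1 between Model and Ctrl. Estimated Park7 counts were whole in 7 of 12 libraries, and those not whole were all in Model and Ctrl libraries. The log2 fold change was -0.84 in Model against Ctrl (SE 0.06; adjusted p = 2.41e-07) and -0.61 in M+NSPCC1 against Ctrl (SE 0.06; adjusted p = 2.53e-06) by the edgeR quasi-likelihood F-test with Benjamini-Hochberg adjustment.

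The metallothioneins rose in both model groups and varied widely between libraries of 1 group. Mt1 (gene ID 17748, chromosome 8, 94178883 to 94180327) had 2690.8, 1165.2, 1247.2 and 1254.1 FPKM in M+NSPCC1, 1596.1, 1431.7, 857.6 and 924.4 FPKM in Model, and 294.2, 319.3, 687.9 and 540.5 FPKM in Ctrl libraries. M+NSPCC1 01 was far above the other 3 of its group, and Ctrl 03 and Ctrl 04 were above Ctrl 01 and Ctrl 02. The log2 fold change was 1.18 in Model against Ctrl (SE 0.38; adjusted p = 0.0123) and 1.59 in M+NSPCC1 against Ctrl (SE 0.39; adjusted p = 0.00219) by the edgeR quasi-likelihood F-test with Benjamini-Hochberg adjustment. Mt1 counts were whole in 0 of 12 libraries and Mt2 counts in 12 of 12, so for Mt1 the division of reads is uncertain. Which sequences may share reads with Mt1 was not tested.

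Mt2 (gene ID 17750, chromosome 8, 94172618 to 94173567) had the same order of libraries within each group as Mt1. It had 3889.7, 1864.6, 2035.5 and 2145.9 FPKM in M+NSPCC1, 2315.9, 2312.6, 1216.7 and 1486.2 FPKM in Model, and 265.1, 284.3, 803.7 and 532.8 FPKM in Ctrl libraries. M+NSPCC1 01 was again the highest library and Ctrl 03 the highest of its group, and the model groups did not overlap with Ctrl. The log2 fold change was 1.74 in Model against Ctrl (SE 0.41; adjusted p = 0.00195) and 2.19 in M+NSPCC1 against Ctrl (SE 0.42; adjusted p = 0.00046) by the edgeR quasi-likelihood F-test with Benjamini-Hochberg adjustment. The ratio of Mt2 to Mt1 FPKM was 1.6 ± 0.109 in M+NSPCC1, 1.53 ± 0.105 in Model and 0.987 ± 0.129 in Ctrl libraries (SD, n = 4 each). It lay between 1.42 and 1.71 in all 8 libraries of the model groups and between 0.891 and 1.17 in Ctrl, a description for which no test was run. Together, both genes summed to 3029.8 to 6580.5 FPKM in M+NSPCC1, 2074.2 to 3911.9 FPKM in Model and 559.2 to 1491.6 FPKM in Ctrl libraries.

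**Figure D2:**
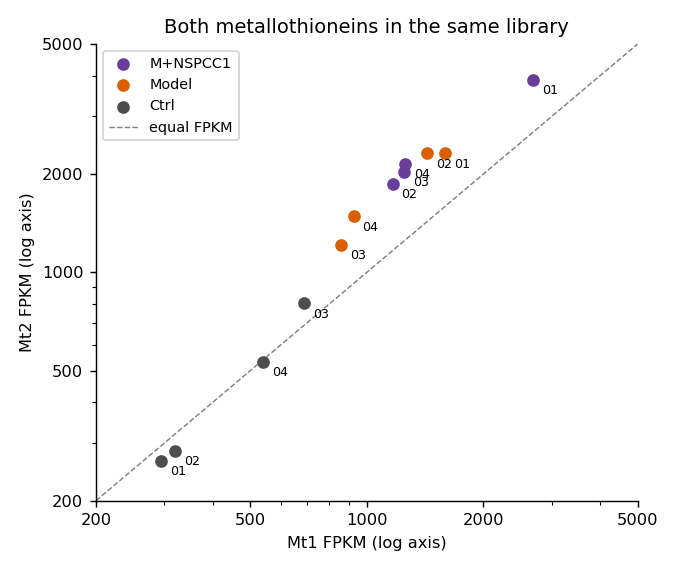
Mt2 against Mt1 level in FPKM in each of the 12 libraries, on log axes; colours mark the groups, numbers the libraries, and the dashed line equal FPKM. The M+NSPCC1 and Model libraries lie above the line, with M+NSPCC1 01 at the top at 3889.7 FPKM of Mt2, while the Ctrl libraries lie near it.

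The order of the 9 genes by level differed between the groups. In M+NSPCC1 libraries Mt2 (2484 FPKM on average) and Mt1 (1589 FPKM) came first, then Gpx4 (378 FPKM), Sod1 (328 FPKM) and Prdx2 (327 FPKM), whose ranges overlapped. Park7, Prdx3, Sod2 and Gpx2 followed with no overlap between neighbours. In Model libraries the metallothioneins again led, with 1833 FPKM of Mt2 and 1202 FPKM of Mt1, and Gpx4, Prdx2 and Sod1 overlapped below them. At the low end of the Model order, Sod2 (34 FPKM) and Gpx2 (29.8 FPKM) overlapped. In Ctrl libraries Gpx4 (718 FPKM) led, and Sod1 (554 FPKM), Mt2 (471 FPKM) and Mt1 (460 FPKM) followed, each overlapping with the next. Prdx2, which shared its range with Sod1 in both model groups, was under Park7 in Ctrl.

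A comparison of mitochondrial with cytosolic members within each library removes differences in total depth. The ratio of Sod2 to Sod1 FPKM was 0.12, 0.0981, 0.105 and 0.106 in M+NSPCC1, 0.146, 0.149, 0.086 and 0.139 in Model, and 0.0809, 0.0725, 0.089 and 0.0755 in Ctrl libraries. All M+NSPCC1 libraries and 3 of the 4 Model libraries were above the highest Ctrl ratio, and Model 03 was inside the Ctrl range. The mean log2 ratio was -2.97 ± 0.38 in Model and -3.65 ± 0.13 in Ctrl libraries (SD, n = 4 each), a difference of 0.68 with p = 0.0571 and, adjusted over the 6 ratio tests by Benjamini-Hochberg, 0.0857 (exact two-sided permutation test). For M+NSPCC1 libraries it was -3.22 ± 0.12, which is 0.44 above Ctrl (exact permutation p = 0.0286, adjusted 0.0571) and differs from Model by -0.24 (exact permutation p = 0.257, adjusted 0.309).

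The ratio of Prdx3 to Prdx2 FPKM lay on the opposite side of Ctrl. It was 0.217, 0.211, 0.173 and 0.166 in M+NSPCC1, 0.177, 0.162, 0.249 and 0.165 in Model, and 0.647, 0.653, 0.741 and 0.691 in Ctrl libraries. All 8 libraries of the model groups were far under every Ctrl library, and M+NSPCC1 and Model overlapped. In Model against Ctrl the log2 ratios differed by -1.88 (exact two-sided permutation p = 0.0286, adjusted 0.0571). In M+NSPCC1 against Ctrl the difference was -1.84 (exact permutation p = 0.0286, adjusted 0.0571), and in M+NSPCC1 against Model it was 0.04 (exact permutation p = 0.829, adjusted 0.829). With 4 libraries against 4 the smallest p that this test can give is 0.0286. The differences at that p had an adjusted exact permutation p of 0.0571, and none of the 6 passed 0.05. A pass was still possible, because the adjusted value falls when more of the 6 tests reach the smallest p. With CPM in place of FPKM, the 4 differences from Ctrl had an adjusted exact permutation p of 0.0429. That change rests on 1 library, Model 03, whose Sod2 to Sod1 ratio then lay just above the Ctrl range. Model 03 had 177.9 CPM of Sod2 and 189.5 CPM of Sod1, and Ctrl 03, the highest Ctrl ratio, had 319.8 and 342.3 CPM.

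**Figure D3:**
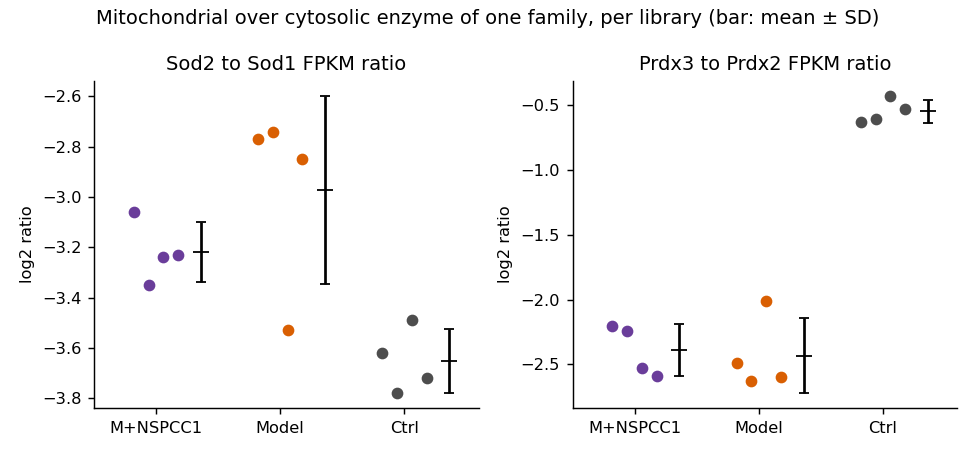
Log2 ratio of the mitochondrial to the cytosolic enzyme of a family, Sod2 to Sod1 (left) and Prdx3 to Prdx2 (right), in each library of M+NSPCC1, Model and Ctrl; points are libraries and the bar is the mean with its SD. The axes do not start at 0, and the mean log2 Prdx ratio is -2.39 in M+NSPCC1, -2.43 in Model and -0.55 in Ctrl libraries.

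The distance between mitochondrial and cytosolic members depended on which cytosolic genes were averaged. The mean log2(FPKM + 0.1) of Sod2 and Prdx3 minus that of the 6 cytosolic genes was -3.05, -2.66, -2.80 and -2.84 in M+NSPCC1, -2.76, -2.77, -2.82 and -2.69 in Model, and -0.98, -1.14, -1.23 and -1.07 in Ctrl libraries. Without the metallothioneins it was -1.53, -1.52, -1.63 and -1.67 in M+NSPCC1, -1.51, -1.49, -1.93 and -1.63 in Model, and -0.45, -0.66, -0.19 and -0.15 in Ctrl libraries. Gpx2, the lowest of the 9 and the one with the largest rise, then carried most of the distance to Ctrl. With Gpx2 left out as well, a choice made after seeing the data, Sod1, Prdx2 and Park7 remained and the values were -2.42, -2.56, -2.63 and -2.65 in M+NSPCC1, -2.35, -2.43, -2.47 and -2.46 in Model, and -2.05, -2.11, -1.90 and -2.06 in Ctrl libraries. The group means were then -2.56 ± 0.104 in M+NSPCC1, -2.43 ± 0.0544 in Model and -2.03 ± 0.0906 in Ctrl libraries (SD, n = 4 each). Of these 3 cytosolic genes Sod1 and Park7 fell against Ctrl, as Sod2 and Prdx3 did, so compartment did not divide the rises from the falls. These values are a description of genes that were chosen with results known, with no test. Gpx4 was left out of both classes because 1 gene gives products for several compartments.

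Of the genes around the 9, the few tested relatives in the same families mostly fell. Of 14 listed relatives 5 were tested, and in both comparisons with Ctrl 1 rose and 4 fell. All tested genes were 49.1% higher and 41.4% lower in Model, and 50.1% higher and 43.1% lower in M+NSPCC1, so these counts rest on 5 genes where most genes pass. Their median log2 fold change in Model against Ctrl was -0.92, beside 0.25 for all tested genes. The one that rose was Mt4, a metallothionein of stratified epithelia, with 256 ± 58.8 CPM in M+NSPCC1, 263 ± 116 in Model and 21.7 ± 5.41 in Ctrl libraries (SD, n = 4 each). Against Ctrl it rose by 3.56 on the log2 scale in M+NSPCC1 and by 3.6 in Model libraries. Sod3, the extracellular superoxide dismutase, fell by 2.09 in M+NSPCC1 and fell by 2.14 in Model on the log2 scale. Prdx6, another cytosolic peroxiredoxin, fell by 0.97 in M+NSPCC1 and fell by 0.92 in Model. Gpx8, a peroxidase of the endoplasmic reticulum membrane, fell by 0.65 in M+NSPCC1 and fell by 0.75 in Model.

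Zinc and copper transport genes, which set the metal supply of metallothioneins and Sod1, were mostly up. In Model against Ctrl 6 of 7 tested (of 13 listed) rose and 0 fell, with a median log2 fold change of 1.37. Among all tested genes 49.1% were higher and 41.4% lower. In M+NSPCC1 against Ctrl 6 of the 7 rose and 0 fell, with a median of 1.35, beside 50.1% higher and 43.1% lower among all tested genes. Between 5 and 7 of the 7 rose in Model under the other scalings. Slc39a10, a zinc importer, had 989 ± 186 CPM in M+NSPCC1, 862 ± 217 in Model and 66.3 ± 1.7 in Ctrl libraries (SD, n = 4 each). Slc39a6, a related importer, rose by 2.61 in M+NSPCC1 and by 2.77 in Model on the log2 scale. Slc30a1, a zinc exporter of the plasma membrane that is known to be induced by zinc, rose by 2.34 in M+NSPCC1 and by 2.46 in Model. Slc31a1, the copper importer, rose by 1.02 in M+NSPCC1 and by 1.13 in Model.

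Genes that recycle oxidised peroxiredoxins or repair oxidised methionine split. Of 9 tested (of 16 listed), 3 rose, 5 fell and 1 did not pass in each comparison with Ctrl, with a median of -0.55 in M+NSPCC1 and -0.62 in Model libraries. All tested genes were 49.1% higher and 41.4% lower in Model, and 50.1% higher and 43.1% lower in M+NSPCC1. A split is therefore usual in these tables. The mitochondrial pair that serves Prdx3 was among the falls: thioredoxin Txn2 had 196 ± 9.04 CPM in M+NSPCC1, 187 ± 12.8 in Model and 288 ± 6.48 in Ctrl libraries, and its reductase Txnrd2 had 14.6 ± 2.1, 15.8 ± 1.42 and 32.4 ± 3.88 CPM in the same groups (SD, n = 4 each). Msra, which reduces oxidised methionine, fell by 0.80 in M+NSPCC1 and fell by 0.92 in Model on the log2 scale. Sesn3, a stress-induced sestrin, rose by 1.57 in M+NSPCC1 and by 1.75 in Model.

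Of the redox regulators, 5 of 13 listed were tested, and 2 rose and 3 fell in both comparisons with Ctrl. This is near the shares of all tested genes, with 49.1% higher and 41.4% lower in Model and 50.1% higher and 43.1% lower in M+NSPCC1. In M+NSPCC1 against Ctrl the split was 1 higher and 3 lower with DESeq2's size factors, under which Foxo1 no longer passed. Keap1, the adaptor that keeps the antioxidant factor Nrf2 at a low level, had 15.2 ± 2.48 CPM in M+NSPCC1, 13.8 ± 1.41 in Model and 29.5 ± 3.05 in Ctrl libraries (SD, n = 4 each). Nfe2l1, a relative of Nrf2, fell by 1.65 in M+NSPCC1 and fell by 1.5 in Model on the log2 scale. The transcription factors Foxo3 and Foxo1, which act on Sod2 among other genes, rose by 0.77 and 0.33 in M+NSPCC1 and by 1.08 and 0.49 in Model.

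Selenoprotein synthesis genes, which Gpx2 and Gpx4 depend on, also split, with 2 higher and 2 lower of 5 tested (of 8 listed) in M+NSPCC1 and 3 higher and 2 lower in Model libraries against Ctrl. These counts too are near the shares of all tested genes, with 50.1% higher and 43.1% lower in M+NSPCC1 and 49.1% higher and 41.4% lower in Model. With whole-library depth as the scaling M+NSPCC1 against Ctrl gave 3 higher and 1 lower, since Selenop then missed the threshold. Sephs2, the selenophosphate synthetase, rose by 0.47 in M+NSPCC1 and by 0.50 in Model on the log2 scale. Sephs1, its relative, rose by 2.25 in M+NSPCC1 and by 1.77 in Model. Selenop, the selenium carrier, fell by 0.83 in M+NSPCC1 and fell by 1.36 in Model. Pstk, the kinase that prepares the selenocysteine transfer RNA, was low, with 0.728 ± 0.0707 CPM in M+NSPCC1, 0.841 ± 0.468 in Model and 3.75 ± 1.35 in Ctrl libraries (SD, n = 4 each).

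Mitochondrial matrix and membrane genes were counted as the setting of Sod2 and Prdx3. In Model against Ctrl 2 rose, 8 fell and 2 did not pass of 12 tested (of 18 listed), with a median of -0.57. Among all tested genes 49.1% were higher and 41.4% lower. In M+NSPCC1 against Ctrl 4 of the 12 rose and 8 fell, with a median of -0.49, beside 50.1% higher and 43.1% lower among all tested genes. The rises depend on the scaling, with 0 higher and 8 lower under DESeq2's size factors in both comparisons, 4 higher and 8 lower under whole-library depth in Model, and 4 higher and 7 lower in M+NSPCC1. Mdh2, the malate dehydrogenase of the matrix, had 502 ± 22 CPM in M+NSPCC1, 500 ± 33.1 in Model and 775 ± 5.39 in Ctrl libraries (SD, n = 4 each), and a log2 fold change of -0.63 against Ctrl in both. Vdac1, the outer membrane channel, had 658 ± 44.9 CPM in M+NSPCC1, 596 ± 82.9 in Model and 1295 ± 72.5 in Ctrl libraries, and Timm23, an import channel of the inner membrane, had 219 ± 14.6, 201 ± 15.5 and 326 ± 9.54 CPM in the same groups (SD, n = 4 each). Muscle is rich in mitochondria, and the skeletal muscle markers fell in the same libraries, with a median log2 fold change of -2.67 in M+NSPCC1 and -3.19 in Model libraries against Ctrl; their part in these falls was not tested.

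**Figure D4:**
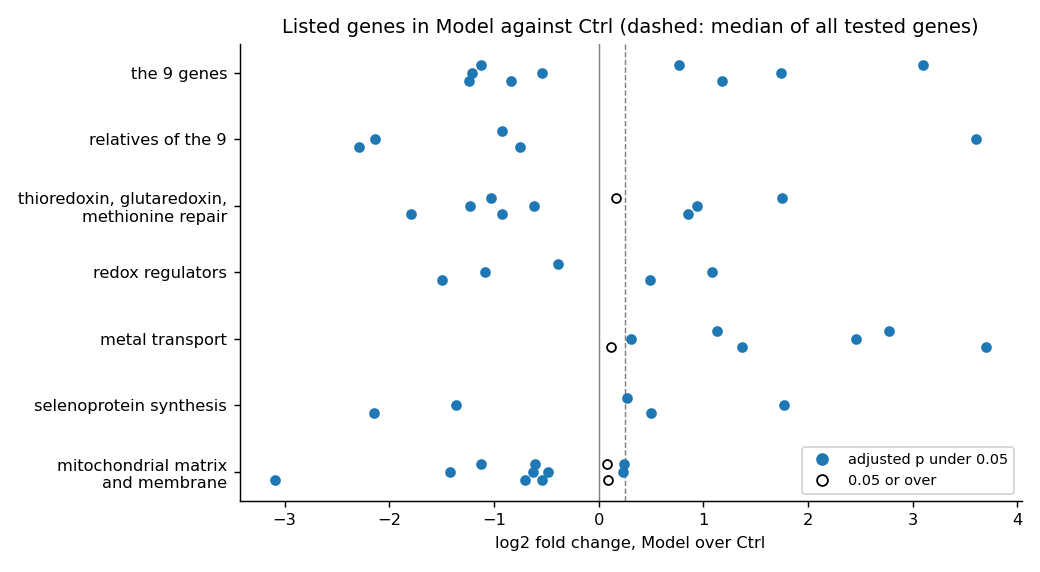
Log2 fold change in Model against Ctrl (horizontal axis) of every tested gene of the 9 and of 6 lists around them (rows); filled points passed an adjusted p under 0.05 by edgeR, open ones did not, and the dashed line is the median of all tested genes. The 6 metal transport genes that passed lie right of 0, while the other lists spread to both sides.

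M+NSPCC1 was set against Model to see what the extract did in the aged skin, and none of the 9 genes passed the test. Of all 7638 tested genes 0% passed an adjusted p under 0.05 by the edgeR quasi-likelihood F-test, in either direction, while 6.57% had an unadjusted p under 0.05. DESeq2 called 14 genes higher and 59 lower. Values did not overlap between the groups, with M+NSPCC1 higher, in 1.3% of genes, and with M+NSPCC1 lower in 2.89%. In the 6 lists of related genes 0 of the tested members passed.

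Park7 was the only one of the 9 whose M+NSPCC1 and Model values did not overlap, with 189.5 to 206.4 FPKM in M+NSPCC1 and 153.1 to 173.9 FPKM in Model libraries. Its log2 fold change was 0.23 (SE 0.06; 95% interval 0.11 to 0.36), with an unadjusted p of 0.00169 and an adjusted p of 0.36 by the edgeR quasi-likelihood F-test with Benjamini-Hochberg adjustment. DESeq2's Wald test gave 0.25 with an adjusted p of 4.29e-05, and over the other alternatives the log2 fold change stayed between 0.21 and 0.27 with an adjusted p of up to 0.884. Sod1 differed by 0.25 on the log2 scale (95% interval -0.01 to 0.52; adjusted p = 0.774 by edgeR), and by 0.40 without Model 03 (adjusted p = 0.106). Gpx4 differed by 0.11 (95% interval -0.19 to 0.41; adjusted p = 0.967 by edgeR). The Gpx4 difference was 0.25 without Model 03, 0.02 without Model 04, 0.05 without M+NSPCC1 02 and 0.17 without M+NSPCC1 03.

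Gpx2 was the gene with the largest difference between M+NSPCC1 and Model, at -0.75 (95% interval -1.6 to 0.1; adjusted p = 0.8 by the edgeR quasi-likelihood F-test). It rested on Model 03, without which the difference was -0.28 (adjusted p = 0.711). Mt1 differed by 0.42 (95% interval -0.41 to 1.25) and Mt2 by 0.45 (95% interval -0.44 to 1.33), each with an adjusted p of 0.939 by edgeR. Without M+NSPCC1 01 the differences were -0.03 for Mt1 and 0.09 for Mt2. That library also had the lowest summed hair shaft level of its group at 32471 CPM, against 53242.3 to 59016 CPM in the other 3, and the highest epidermal level at 7469 CPM. Model 03 had the highest skeletal muscle level of the Model libraries at 17350.6 CPM, the lowest hair shaft level at 49788.1 CPM and the highest epidermal level at 8559.4 CPM. Its summed sebaceous gland level was 9869.4 CPM, against 3689.2 to 3887.7 CPM in the other 3 Model libraries, and its immune level was 1807.8 CPM, against 621.4 to 812.9 CPM. Fibroblast markers summed to 9572.1 CPM in it and to 3814.7 to 6171.4 CPM in the others, adipocyte markers to 3044.2 CPM and 1312.1 to 1799.7 CPM, and endothelial markers to 428.7 CPM and 147.6 to 252.1 CPM. Cell division markers were lowest in it, at 838.7 CPM against 1406.6 to 1703.6 CPM. M+NSPCC1 01 had the highest sebaceous gland level of its group at 7025.3 CPM, against 4331.8 to 5472.5 CPM, and the lowest adipocyte level at 1517.1 CPM. The part of these markers in the values of both libraries was not tested.

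For 3 genes the interval limits a difference to a small size. Sod2 differed by 0.01 (95% interval -0.19 to 0.21), Prdx3 by 0.02 (95% interval -0.15 to 0.18) and Prdx2 by -0.03 (95% interval -0.26 to 0.21) on the log2 scale in M+NSPCC1 against Model by edgeR. A difference inside these intervals is not excluded, and the intervals rest on a spread estimated from all 12 libraries. Foxo3, of the regulators, had 185 ± 17.3 CPM in M+NSPCC1 and 229 ± 14.4 CPM in Model libraries (SD, n = 4 each), a log2 fold change of -0.31 with an unadjusted p of 0.00166 and an adjusted p of 0.36 by edgeR.

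**Figure D5:**
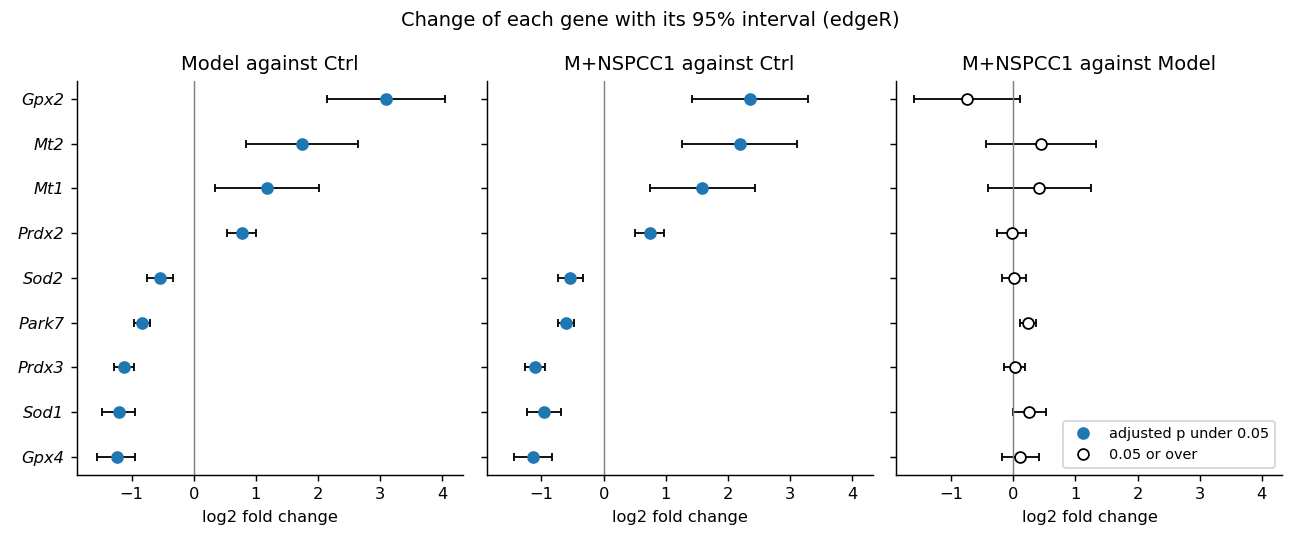
Log2 fold change of each of the 9 genes with its 95% interval (horizontal axis) in Model against Ctrl, M+NSPCC1 against Ctrl and M+NSPCC1 against Model; filled points passed an adjusted p under 0.05 by edgeR, open points did not. In the last panel every interval except that of Park7 reaches 0, and the widest are those of Gpx2, Mt1 and Mt2.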

How the data were processed

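Total RNA of 12 mouse skin samples was made into messenger RNA libraries, per the labels' protocols, and the samples were grouped by their titles. The authors deposited estimated counts and FPKM values per transcript. Per the submitters' processing notes, mm10, RSEM 1.3.1, HISAT2 2.2.1 and DESeq2 1.34.0 were used, in roles that are not stated. Why these 10720 transcripts (7902 genes) were tabulated the sources used here do not say. Of the deposited count values, 69.5% were not exactly whole (no tolerance). Values were summed by gene ID, and counts were rounded.

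Counts were tested with edgeR 4.0.16 (R 4.3.3; quasi-likelihood test, TMM factors, filter by expression, all 12 libraries, no covariate), with a Benjamini-Hochberg threshold of 0.05. Log2 fold changes are above 0 where the group named first is higher. Family ratios were compared as log2 of FPKM + 0.1 by an exact permutation test (two-sided, 4 libraries against 4), adjusted over 6 tests. The log2 scale with a pseudocount understates changes of low genes. Alternatives were DESeq2's size factors, whole-library depth, DESeq2 1.42.0, limma 3.58.1 on log2(FPKM + 1) or log2(FPKM + 0.1), other filters, only the 8 libraries compared, a replicate block, the largest transcript only, and each library left out. Genes named beside the 9 were, per list, up to 4 with the smallest p in Model against Ctrl, and for each of the 9 the 2 most alike in log2 CPM, and some genes that this rule names are not reported here. Compartments were assigned from general knowledge. The members and lists were chosen with earlier results of these data known. The test was checked on simulated counts in which only a small part of the genes changed. That check does not reach comparisons in which most genes differ, as those with Ctrl do.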

Additional observations from a re-analysis of the deposited data

Results flagged for a closer look

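In 3 of 33 groups of 4 values, the highest or lowest library was separated from the others by more of the group's range than Dixon's 95% critical value of 0.829 allows, and chance alone gives about 1 in 20. Mt1 had 2690.8 FPKM in M+NSPCC1 01, and the next library of the group had 1254.1 FPKM, a gap of 0.942 of the range. Mt2 had 3889.7 FPKM in the same library, with 2145.9 FPKM in the next and a gap of 0.861 of the range. The log2 ratio of Sod2 to Sod1 was -3.53 in Model 03, with -2.85 in the next lowest Model library and a gap of 0.871 of the range.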

How the results depend on the processing

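All 9 genes kept their direction and their pass in both comparisons with Ctrl in all 207 alternative values of each. In M+NSPCC1 against Model, DESeq2 called 1 of the 9 higher, Park7 (0.25; adjusted p = 4.29e-05), and 14 genes higher and 59 lower of all tested. Other counts of all tested genes in that comparison were 2 higher with limma on log2(FPKM + 1) without a filter, and 1 higher and 1 lower both with only the 8 libraries compared and with the largest transcript only. With libraries left out in turn they were 0 to 1 higher and 0 to 3 lower, the highest without M+NSPCC1 01. Prdx2 changed sign to 0.01 with whole-library depth and with limma at both pseudocounts and without a filter. With libraries left out, Prdx2 ran from -0.12 to 0.04, Sod2 from -0.05 to 0.08, Prdx3 from -0.03 to 0.06 and Mt1 from -0.03 to 0.56. As ratios of CPM, Sod2 to Sod1 differed from Ctrl by 0.43 in M+NSPCC1 and 0.68 in Model, and Prdx3 to Prdx2 by -1.84 in M+NSPCC1 and -1.88 in Model, each with an adjusted exact permutation p of 0.0429. The adjusted values depend on the p-values of all 6 tests together. With FPKM, Model 03 was inside the Ctrl range of Sod2 to Sod1. That test, Model against Ctrl, then had an unadjusted exact permutation p of 0.0571, above the smallest possible 0.0286. Same-numbered libraries of different groups correlated by -0.236 to 0.116 in their deviations, so the numbers do not pair the samples. With the replicate number as a block, 4 of the 9 were higher and 5 lower against Ctrl in both comparisons, 0 passed in M+NSPCC1 against Model, and of all tested genes 3771 were higher and 3256 lower in M+NSPCC1 against Ctrl, and 3654 higher and 3169 lower in Model against Ctrl. Leaving out 1 library leaves 3 against 4, where an exact permutation test of a ratio cannot give a p under 0.0571. Low counts limit Gpx2 in Ctrl libraries, and divided reads limit Mt1 and Gpx4. Park7 counts were whole in 7 of 12 libraries, so divided reads may limit Park7 in part.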

Other observations

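The genes whose log2 CPM was most like that of each of the 9 over the 12 libraries were looked up among the 6266 tested genes whose mean reached 10 CPM. The libraries fall into groups that differ in most tabulated genes, so these correlations mostly restate the group difference and are given as a description. Sod1 was closest to Ndufb4, a subunit of respiratory complex I (r = 0.993), and to Gstp2, a glutathione transferase (r = 0.991). Prdx3 was closest to Eci1, of mitochondrial fatty acid oxidation, and Idh3a, of the citric acid cycle (r = 0.995 each). Sod2 was closest to Slc25a3, the mitochondrial phosphate carrier (r = 0.984), and to Adsl, an enzyme of purine synthesis (r = 0.97). Park7 was closest to Atp5j2, a subunit of ATP synthase (r = 0.99), and Tmem143 (r = 0.988), and Gpx4 to Camk2b, a calcium-dependent kinase (r = 0.993), and Pttg1, or securin (r = 0.992).

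Of the genes that rose against Ctrl, Gpx2 was closest to Gm11596 (r = 0.97) and Krtap4-13, a keratin-associated protein (r = 0.967). Prdx2 was closest to Gcat, of glycine metabolism, and Lancl1 (r = 0.991 each). Mt1 was closest to Ebna1bp2, of ribosome assembly (r = 0.958), and Sec61a1, of the protein channel into the endoplasmic reticulum (r = 0.952). Mt2 was closest to the same Sec61a1 (r = 0.978) and to Urah (r = 0.977).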
